A study of Mus musculus with 21 samples.

Results

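Type I interferon-stimulated genes were followed in mouse hematopoietic stem cells (HSCs) as a list of 38 genes, taken by symbol from a table of read counts for 47729 genes. All 38 were found, and all 38 had enough reads to be tested. The list was chosen with earlier results of these data known, so shares of all genes set beside it are descriptive. The stem cells were sorted from bone marrow as CD48-, CD150+ cells within the LSK fraction (lineage marker-negative, Sca-1+, Kit+), and there were 7 groups with 3 libraries each. One experiment crossed genotype, Mx1-Cre;Atg5fl/fl or wild type (WT), with drug: the proteasome inhibitor bortezomib (10 mg/kg) or its vehicle, 10% DMSO, each injected retro-orbitally 48 h and again 24 h before the cells were analysed. This gives, in the order used here, Mx1-Cre;Atg5fl/fl bortezomib, WT bortezomib, Mx1-Cre;Atg5fl/fl DMSO and WT DMSO. A reporter experiment used RFP-EGFP-LC3 mice without treatment, which carry a tandem fluorescent tag on the autophagy protein LC3, and their HSCs were sorted as RFP single positive, RFP GFP double positive and double negative cells. Atg5 is needed to attach LC3 to membranes in autophagy, and one label field spells the genotype Mx1-Cre; Atgfl/fl while the titles write Atg5-/-. The Mx1-Cre transgene puts the recombinase under the interferon-inducible promoter of Mx1, one of the 38 genes. Whether and when an inducer was given, strain, age and sex of the mice are not in the labels, and the WT groups are not described as carrying Cre. Separate animals are not stated either, so p-values measure the spread between these samples, which may be technical.

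Type I interferons bind a receptor made of Ifnar1 and Ifnar2, whose kinases Jak1 and Tyk2 activate STAT proteins. The complex ISGF3, which contains Stat2 and Irf9, binds the interferon-stimulated response element (ISRE) in promoters of antiviral genes, and STAT dimers bind the gamma-activated site (GAS). HSCs respond to interferon directly, leaving quiescence after acute exposure, and stem cells are known to keep a set of antiviral genes on without infection.

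Libraries held between 15005500 and 31481691 counts and 16095 to 18899 detected genes. Values are CPM, counts scaled to library size. Atg5 itself stood at 95.2, 95.4 and 142.5 CPM in Mx1-Cre;Atg5fl/fl bortezomib, 100.4, 72.2 and 135 CPM in WT bortezomib, 114, 113.5 and 107 CPM in Mx1-Cre;Atg5fl/fl DMSO and 55.0, 39.9 and 74.6 CPM in WT DMSO. A count over the whole gene does not isolate a deleted part, so it checks nothing about the genotype, and groups are named by their labels. Of the counts of Xist and Ddx3y together, Xist held 100%, 0% and 3.51% in Mx1-Cre;Atg5fl/fl bortezomib and 46.4%, 31.8% and 90.3% in WT bortezomib. The share was at most 0.987% in each Mx1-Cre;Atg5fl/fl DMSO library, against 99.2%, 98.6% and 60.0% in WT DMSO, so sex markers and genotype cannot be told apart in DMSO from these groups alone. None of 12 HSC markers was at 0 in any group.

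The promoters of the members are shown first because many members moved together in the comparisons that follow. RefSeq promoters (GRCm38.p6, 300 bases, 250 before and 50 after the start) were available for 28 of the 38 genes. The ISRE letters GAAANNGAAA, or TTTCNNTTTC on the other strand, occurred in 12 of these 28 (42.9%), against 3.44% of all 32851 promoters. The GAS letters TTCNNNGAA, which read the same on both strands, occurred in 8 (28.6%), against 8.3% of all promoters. Members were counted by gene and the background by promoter. Of the GAS holders, Ifit2 and Irf1 have 2 promoters each and Isg20 has 3, which raises their odds of a match. The list was chosen as interferon-stimulated genes, so these shares describe it and test nothing. The pair can overlap, as in Bst2. The windows below lie wholly before the start, read 5′ to 3′ along the gene, with the match in capitals. The first 5 belong to genes that were higher in Mx1-Cre;Atg5fl/fl than in WT HSCs under bortezomib, Isg15 to one that did not pass that test, and Bst2 to the one that was lower. The Irf1 window shows its GAS match.
Rsad2, chr12:26456543-26456592, minus strand: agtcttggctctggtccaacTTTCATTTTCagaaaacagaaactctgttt
Ifit1, chr19:34640765-34640833, plus strand: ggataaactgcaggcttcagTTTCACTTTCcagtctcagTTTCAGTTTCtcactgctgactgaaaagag
Ifit3, chr19:34583353-34583436, plus strand: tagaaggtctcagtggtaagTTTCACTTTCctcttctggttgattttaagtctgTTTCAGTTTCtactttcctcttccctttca
Stat2, chr10:128270256-128270305, plus strand: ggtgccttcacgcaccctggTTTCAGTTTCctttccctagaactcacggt
Oas3, chr5:120777705-120777754, minus strand: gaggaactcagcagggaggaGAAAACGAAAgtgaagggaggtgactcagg
Isg15, chr4:156200855-156200916, minus strand: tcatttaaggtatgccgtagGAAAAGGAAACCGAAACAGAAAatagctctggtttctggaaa
Bst2, chr8:71537567-71537622, minus strand: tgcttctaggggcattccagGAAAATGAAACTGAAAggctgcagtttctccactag
Irf1, chr11:53769904-53769952, plus strand: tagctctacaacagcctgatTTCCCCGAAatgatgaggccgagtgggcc
Isg15 holds 3 overlapping ISRE matches, and Ifit1, Ifit3 and Bst2 hold 2 each. Among members with a promoter, the ISRE letters were present in 8 of the 20 called higher in Mx1-Cre;Atg5fl/fl under bortezomib, in 3 of the 7 not called and in the 1 called lower. A match is a description of the letters and not of a bound site.

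Per length, the members spanned a wide range without bortezomib. In WT DMSO the membrane proteins Ifitm3 and Ifitm1, which restrict entry of viruses, stood highest at 1337 and 1076 RPKM, which scales counts by library size and exon length. The tetherin gene Bst2 followed at 146 RPKM and Ifi27 at 97.1 RPKM. The dynamin-like GTPase genes Mx1 and Mx2 stood lowest, at 0.535 and 0.673 RPKM. Ifitm3 and Ifitm1 were also the highest members, and Mx1 and Mx2 the lowest, in Mx1-Cre;Atg5fl/fl bortezomib (1490, 1311, 0.762 and 1.25 RPKM).

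**Figure D1:**
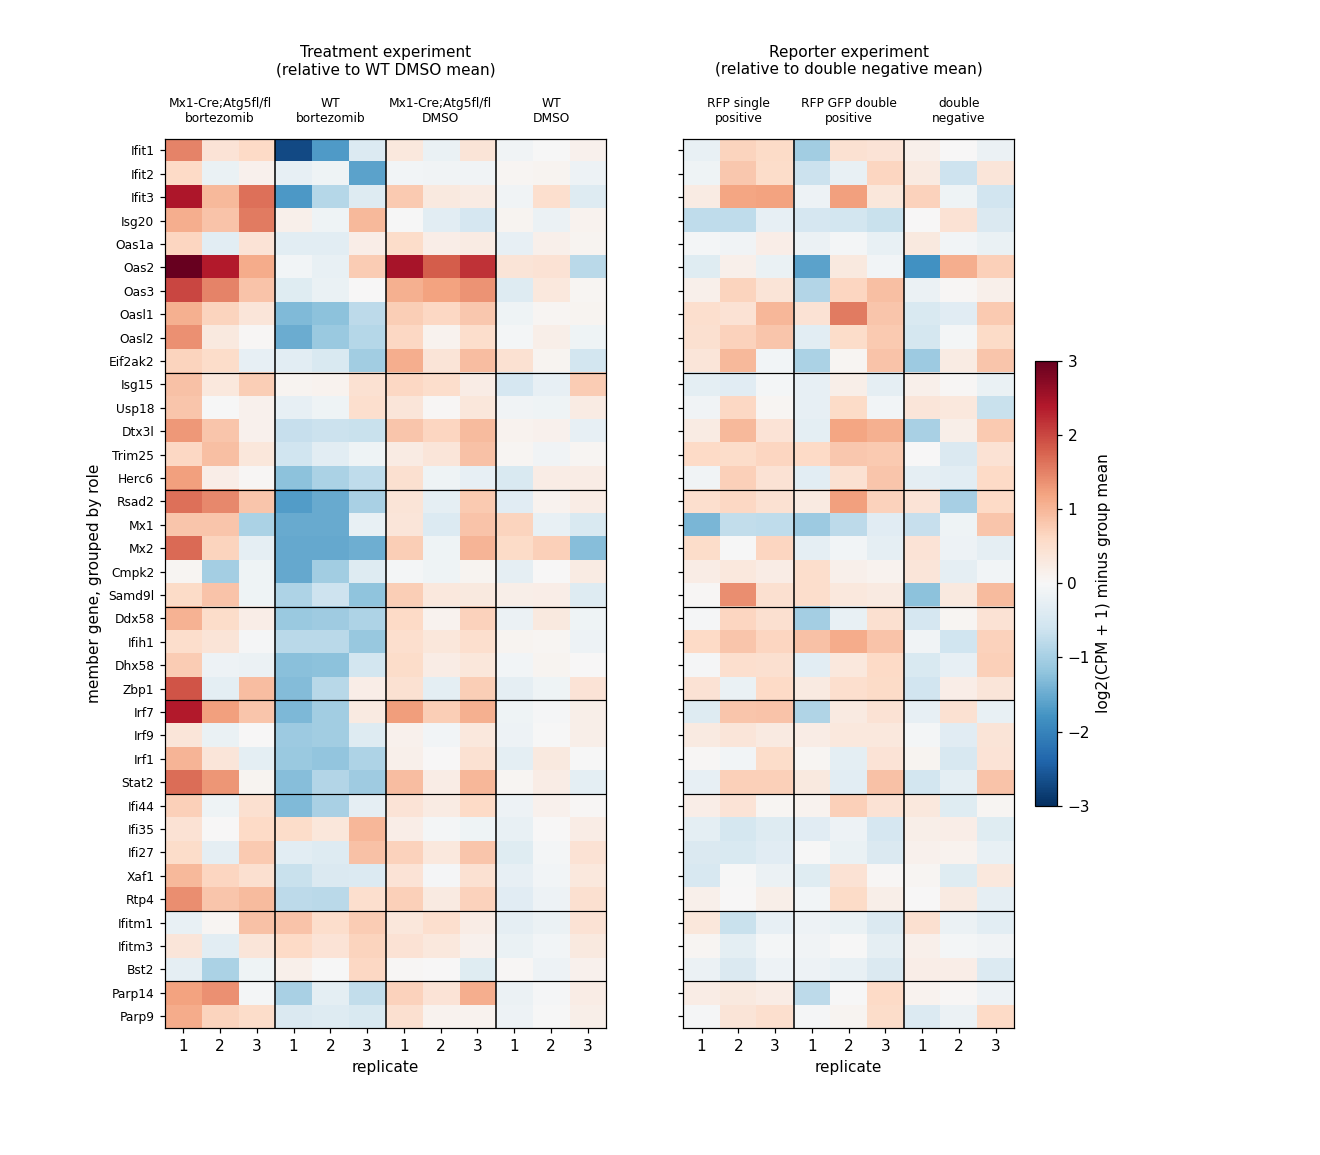
Difference of log2(CPM + 1) from the mean of WT DMSO (treatment experiment) or of double negative (reporter experiment) for each of the 38 members (rows, by role) in each library (columns). In Mx1-Cre;Atg5fl/fl bortezomib most members are red and in WT bortezomib most are blue, apart from Bst2 and Cmpk2 in Mx1-Cre;Atg5fl/fl and Ifi35, Ifitm1, Ifitm3, Isg20, Bst2, Isg15, Oas2, Ifi27 and Usp18 in WT, while Oas2 and Oas3 are red in both Mx1-Cre;Atg5fl/fl groups.

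Mx1-Cre;Atg5fl/fl and WT HSCs were compared where both had received bortezomib. Of the 38 members, 27 were higher in Mx1-Cre;Atg5fl/fl and 1, Bst2, was lower, at an edgeR adjusted p under 0.05. Over all genes tested, 17.2% were called higher and 15.3% lower (32.4% either way). The median log2 fold change of the members was 1.28, against 0.08 over all 16149 genes. In 25 members all 3 Mx1-Cre;Atg5fl/fl libraries lay above all 3 WT libraries and in 2 they lay below, against 22.3% and 21.8% of all genes. Between 26 and 29 members were called when any one library was left out, and 24 of the 28 calls held in each of 14 alternative fits. Isg20, Bst2, Zbp1 and Eif2ak2 lost theirs in some. The shares of all genes called in these other fits are not given here.

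**Figure D2:**
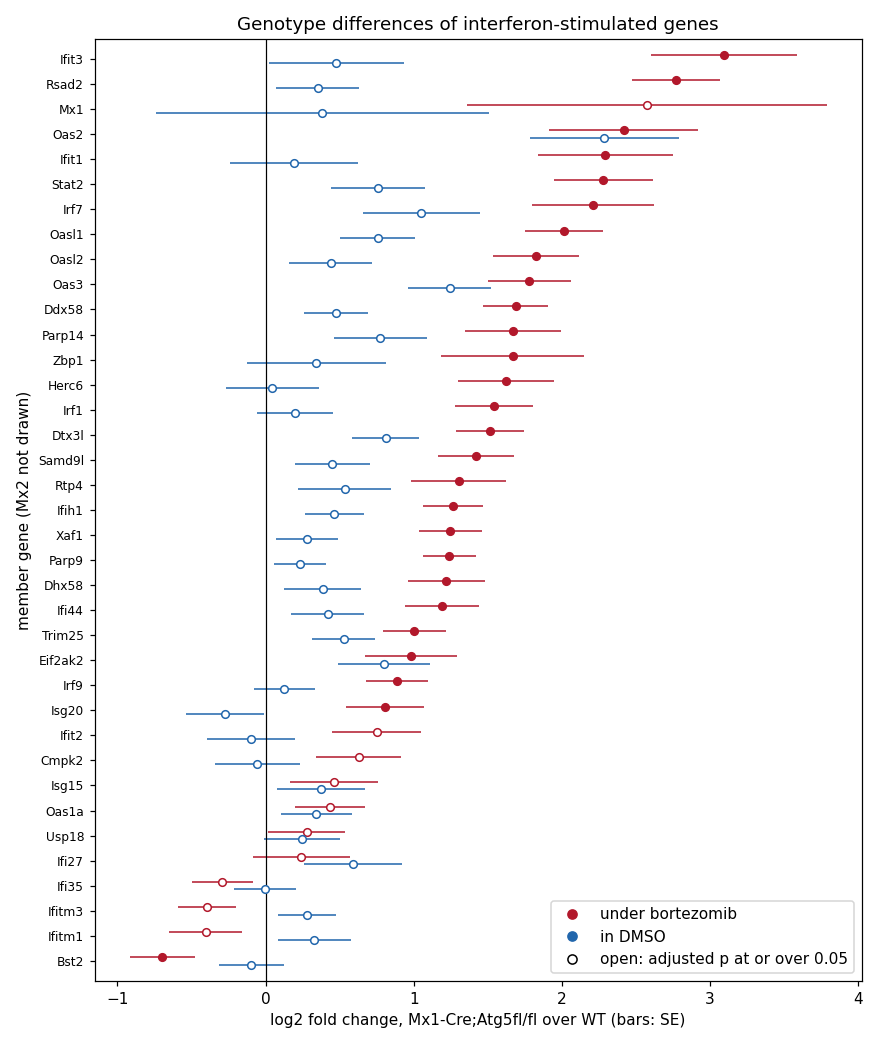
Log2 fold change of Mx1-Cre;Atg5fl/fl over WT HSCs (bars are SE) for 37 members, under bortezomib (red) and in DMSO (blue), with filled points for an adjusted p under 0.05. Under bortezomib 26 of the drawn members are filled to the right of 0 and Bst2 to the left, while no point is filled in DMSO. Mx2 is not drawn because WT bortezomib held 1 count of it in all.

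The cytosolic sensors were all higher. Ddx58 encodes RIG-I, a sensor of viral RNA ends. It stood at 212, 149 and 117.5 CPM in Mx1-Cre;Atg5fl/fl bortezomib, against 46.7, 48.6 and 53.3 CPM in WT bortezomib. The lowest of the first group was more than the highest of the other (edgeR log2 fold change 1.69, SE 0.22, adjusted p = 0.000166). Ifih1, which encodes the long-duplex RNA sensor MDA5, stood at 43.8, 39.8 and 29.2 CPM against 16.8, 16.9 and 13.2 CPM in WT, again without overlap (1.27, SE 0.20, adjusted p = 0.000408). Dhx58, whose product LGP2 modulates the other RNA sensors, stood at 91.8, 47.5 and 47.3 CPM against 21.7, 22.2 and 36.2 CPM in WT (1.22, adjusted p = 0.00254). The groups overlapped for Zbp1, a sensor of Z-form nucleic acids. It stood at 89.6, 18.8 and 45.1 CPM against 8.81, 12.6 and 27.0 CPM in WT (1.67, SE 0.48, adjusted p = 0.0153). The Zbp1 call ended without Mx1-Cre;Atg5fl/fl bortezomib 1, WT bortezomib 1 or WT bortezomib 2, with an adjusted p of up to 0.129.

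The interferon transcription factors were higher as well, 4 of 4, each without overlap of the libraries. Stat2 stood at 143, 111 and 46.8 CPM in Mx1-Cre;Atg5fl/fl bortezomib and at 17.6, 23.6 and 20.7 CPM in WT bortezomib (edgeR log2 fold change 2.28, SE 0.33, adjusted p = 0.000244). The third library of Mx1-Cre;Atg5fl/fl was well below the other two, yet above every WT library. Irf7, which drives interferon gene transcription, showed the same order of libraries at 208.5, 93.6 and 70.7 CPM, against 14.8, 18.5 and 47.3 CPM in WT (2.21, adjusted p = 0.000989). For Irf1, an interferon-induced activator with a GAS match in its promoter, values were 412, 258.5 and 164 CPM against 92.5, 87.9 and 106 CPM in WT (1.54, adjusted p = 0.000566). Irf9, the DNA-binding subunit of ISGF3, differed least, at 242, 163.5 and 189 CPM against 87.9, 90.9 and 142 CPM in WT (0.89, SE 0.21, adjusted p = 0.00426).

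Effectors that act on RNA were higher in 8 of 10 cases. The Ifit genes, whose products bind viral RNA and block its translation, lie in a cluster on chromosome 19 (34550694 to 34650009, GRCm38) and did not move alike. Ifit3 had the largest fitted difference among members with a mean of at least 1 CPM in both groups, at 36.4, 12.5 and 20.8 CPM in Mx1-Cre;Atg5fl/fl bortezomib against 1.09, 2.81 and 4.27 CPM in WT bortezomib (edgeR log2 fold change 3.10, SE 0.49, adjusted p = 0.000389). Ifit1 stood at 105, 49.3 and 56.4 CPM against 4.799, 10.6 and 27.6 CPM in WT (2.29, SE 0.46, adjusted p = 0.00152). Both were free of overlap. Ifit2 at 89.1, 51.1 and 65.0 CPM overlapped with WT at 49.9, 53.6 and 18.6 CPM and did not pass (0.75, adjusted p = 0.0662). Reads of Ifit3 can be shared with its near-identical copy Ifit3b, so the split between them is uncertain.

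The oligoadenylate synthetases, which make the signal that switches on RNase L, form a cluster on chromosome 5 (Oas2, Oas3 and Oas1a, 120730333 to 120907521). Oas2 stood at 50.1, 28.4 and 11.3 CPM in Mx1-Cre;Atg5fl/fl bortezomib and at 4.32, 3.83 and 8.65 CPM in WT bortezomib (edgeR log2 fold change 2.42, SE 0.51, adjusted p = 0.00214). Oas3 stood at 61.2, 42.03 and 27.0 CPM against 10.9, 12.4 and 14.6 CPM in WT (1.78, SE 0.28, adjusted p = 0.000390). Their neighbour Oas1a overlapped between the genotypes and did not pass, at 76.3, 38.7 and 64.5 CPM against 38.3, 38.9 and 55.7 CPM in WT (0.43, adjusted p = 0.184). Near-identical copies of Oas1a may share its reads. The synthetase-like genes Oasl1 and Oasl2 lie next to each other elsewhere on chromosome 5 (114896936 to 114937915), and both were higher without overlap. Oasl1 had 27.1, 20.4 and 16.4 CPM against 4.41, 4.70 and 6.76 CPM in WT (2.01, SE 0.26, adjusted p = 0.000166). Oasl2 had 369, 174 and 146 CPM against 50.4, 65.9 and 78.1 CPM in WT (1.83, SE 0.29, adjusted p = 0.000391). The exonuclease gene Isg20 (102.6, 87.5 and 143.5 CPM against 53.1, 43.3 and 94.8 CPM in WT) and the kinase gene Eif2ak2, encoding PKR (45.1, 41.3 and 23.5 CPM against 22.5, 20.03 and 13.1 CPM in WT), had smaller differences of 0.80 and 0.98. Their adjusted p-values were 0.0289 and 0.0244, and both calls ended when certain single libraries were left out, that of Isg20 also in a fit of these 2 groups only, with an adjusted p of up to 0.131 for Isg20 and up to 0.103 for Eif2ak2.

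Among antiviral GTPases and metabolic effectors 3 of 5 were higher. Rsad2 encodes viperin, a radical enzyme that makes a chain-terminating nucleotide, and had the smallest adjusted p of all members. It stood at 154.5, 132 and 86.9 CPM in Mx1-Cre;Atg5fl/fl bortezomib and 14.5, 16.3 and 24.0 CPM in WT bortezomib, far apart in every library (edgeR log2 fold change 2.77, SE 0.30, adjusted p = 7.94e-05). Cmpk2, a mitochondrial nucleotide kinase gene that neighbours Rsad2 on chromosome 12 (26442746 to 26479837 for the pair), overlapped at 85.4, 40.2 and 75.1 CPM against 27.8, 39.4 and 62.8 CPM in WT (0.63, adjusted p = 0.107). Samd9l, known to restrain growth of blood progenitors, stood at 77.6, 94.0 and 47.1 CPM against 26.6, 33.3 and 21.8 CPM in WT without overlap (1.42, adjusted p = 0.000853). Mx2 had 291 counts over the 3 Mx1-Cre;Atg5fl/fl bortezomib libraries and 1 count over the 3 WT bortezomib libraries, a depth-adjusted ratio of 264 with a 95% counting interval of 47 to 10500 and an edgeR adjusted p of 0.000661. Mx1 had 181 and 29 counts in the same groups, a ratio of 5.66 (3.81 to 8.69), and did not pass (adjusted p = 0.12). These intervals cover counting error only, Mx1 and Mx2 are near-identical in part, and Mx2 is annotated as a polymorphic pseudogene.

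**Figure D3:**
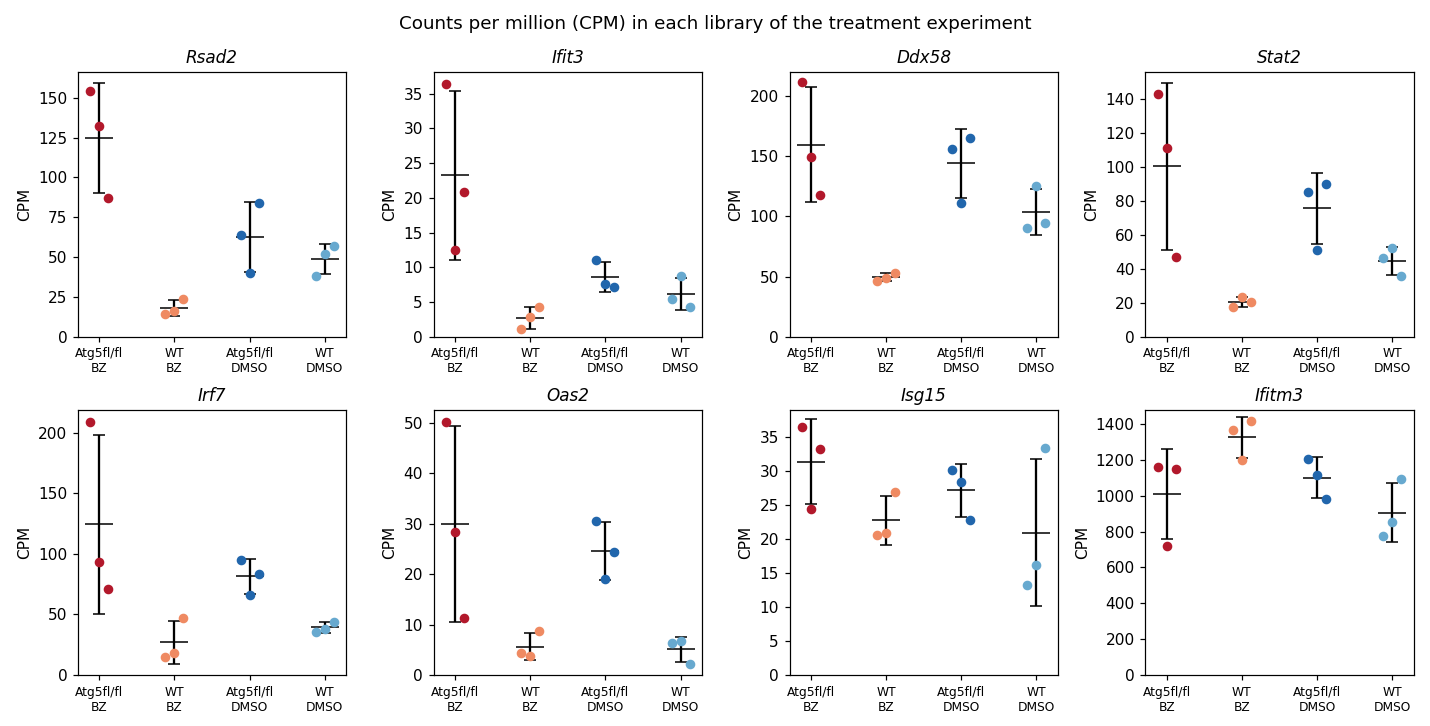
CPM of 8 members in each library of the treatment experiment, where points are libraries, bars the mean and SD of 3 libraries, BZ is bortezomib and Atg5fl/fl stands for Mx1-Cre;Atg5fl/fl. Rsad2, Ifit3, Ddx58, Stat2 and Irf7 are lowest in WT bortezomib, Oas2 is high in both Mx1-Cre;Atg5fl/fl groups, and Isg15 overlaps between groups, while Ifitm3 is lower in Mx1-Cre;Atg5fl/fl bortezomib than in WT bortezomib in every library.

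The ISG15 and ubiquitin genes split. Dtx3l, a ubiquitin ligase gene, stood at 272, 198 and 121.5 CPM in Mx1-Cre;Atg5fl/fl bortezomib and at a narrow 68.1, 69.7 and 69.1 CPM in WT bortezomib (edgeR log2 fold change 1.52, SE 0.23, adjusted p = 0.000298). Herc6, which encodes the main ligase for ISG15 in the mouse, had 69.2, 33.0 and 29.6 CPM against 11.7, 14.5 and 16.6 CPM in WT (1.62, adjusted p = 0.00159). Trim25, the RIG-I ubiquitin ligase gene, had 59.3, 72.5 and 48.3 CPM against 24.7, 30.4 and 34.6 CPM in WT (1.00, adjusted p = 0.00241). The libraries did not overlap for any of these ligases. Isg15 itself, the ubiquitin-like modifier, overlapped at 36.5, 24.5 and 33.2 CPM against 20.6, 20.8 and 26.9 CPM in WT (0.46, adjusted p = 0.257). Usp18, the protease that removes ISG15 and dampens the receptor, also overlapped (52.3, 28.7 and 31.8 CPM against 24.6, 26.6 and 41.9 CPM in WT, 0.28, adjusted p = 0.452).

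Both ADP-ribosyltransferase genes were higher. Parp9, whose product pairs with that of Dtx3l, stood at 233, 172 and 159 CPM in Mx1-Cre;Atg5fl/fl bortezomib against 79.5, 81.7 and 77.4 CPM in WT bortezomib (edgeR log2 fold change 1.24, SE 0.18, adjusted p = 0.000231). Parp14 stood at 63.0, 70.1 and 25.7 CPM against 13.04, 21.4 and 15.5 CPM in WT (1.67, adjusted p = 0.00124). Neither overlapped. Parp9 and Dtx3l run in opposite directions on chromosome 16 and share 682 bases of gene body, and with no strand setting given for the counting, reads there cannot be assigned with certainty.

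Of the remaining genes, Xaf1, Ifi44 and Rtp4 were higher and Ifi27 and Ifi35 overlapped. Xaf1, a pro-apoptotic gene, had 78.2, 62.2 and 55.1 CPM in Mx1-Cre;Atg5fl/fl bortezomib and 24.2, 28.7 and 29.4 CPM in WT bortezomib (edgeR log2 fold change 1.25, adjusted p = 0.000592). Rtp4, a receptor chaperone gene, had 288, 195 and 213 CPM against 63.2, 62.0 and 157 CPM in WT (1.30, adjusted p = 0.00571). Ifi44 had 174, 97.9 and 149 CPM against 42.1, 54.1 and 88.2 CPM in WT (1.19, adjusted p = 0.00223). The membrane proteins went with none of these. Bst2 stood at 109, 67.3 and 121 CPM against 147, 131 and 205 CPM in WT, below in every library (-0.70, SE 0.22, adjusted p = 0.0238). That call ended with length and GC offsets (-0.42, adjusted p = 0.14), with the Xist share as a covariate, in a fit of these 2 groups only, and without Mx1-Cre;Atg5fl/fl bortezomib 2 or WT bortezomib 3. Ifitm3 had 1160, 719 and 1152 CPM against 1368, 1198 and 1416 CPM in WT and did not pass (-0.39, adjusted p = 0.137), nor did Ifitm1 (-0.40, adjusted p = 0.233).

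Marker lists of other cells moved between the same groups, where 17.2% of all genes were called higher and 15.3% lower. The summed level of 9 erythroid markers was 1010 to 1180 CPM in Mx1-Cre;Atg5fl/fl bortezomib and 1980 to 2080 CPM in WT bortezomib. Most of this sum was Car2, a carbonic anhydrase gene (mean 1039 against 1834 CPM in WT), and the list was mixed: Car2 and Hbb-bt were lower, Hba-a1 was higher, and 6 of the 9 log2 fold changes were above 0 (median 0.82). For 12 monocyte and macrophage markers the sum was 311 to 676 against 655 to 933 CPM with Ly6c2 at 0 in WT, and 5 of the 11 tested were lower and 0 higher. The T and NK cell list was also mixed, with sums of 58.1 to 133 against 146 to 213 CPM over 9 markers and Cd3e, Cd3d, Cd3g and Gzma at 0 in both. Of its 3 tested markers Nkg7 was lower (68.9 against 166 CPM in WT, edgeR adjusted p = 0.00419) and Ccl5, a chemokine gene, was higher (14.97 against 0.454 CPM in WT, adjusted p = 0.000416). The 12 HSC markers summed to 3280 to 3760 against 2350 to 2710 CPM, with 7 higher and 0 lower. The plasmacytoid dendritic cell genes Siglech, Klk1 and Ly6d were at 0 in both groups, Ccr9 and Cox6a2 also in WT. The 8 markers of that list summed to 139 to 184 CPM against 79.6 to 103 CPM, and of the 3 tested 3 were higher and 0 lower. The part of these lists in the result was not tested, and in bulk RNA fewer cells of a type and less RNA per cell cannot be told apart. Ly6a, which encodes the sort antigen Sca-1 and is itself interferon-responsive, stood at 708, 559 and 704 CPM against 335, 295 and 509 CPM in WT without overlap (edgeR log2 fold change 0.79, SE 0.23, adjusted p = 0.0173).

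Bortezomib was compared with DMSO within each genotype. In WT HSCs 15 members fell and 1 rose, where 7.56% of all genes were called lower and 7.97% higher (15.5% either way). The median of the members was -0.67, against -0.04 over all genes, and in 20 members all 3 bortezomib libraries lay below all 3 DMSO libraries, against 17.7% of all genes. This comparison and the genotype comparison above share the WT bortezomib libraries. Rsad2 fell to 14.5, 16.3 and 24.0 CPM in WT bortezomib, against 38.3, 52.0 and 56.7 CPM in WT DMSO (edgeR log2 fold change -1.43, SE 0.29, adjusted p = 0.00648). Ddx58 fell to 46.7, 48.6 and 53.3 CPM, against 90.6, 126 and 94.3 CPM in DMSO (-1.06, SE 0.22, adjusted p = 0.00714). Ifih1 fell to 16.8, 16.9 and 13.2 CPM, against 32.2, 31.2 and 27.2 CPM in DMSO (-0.95, SE 0.20, adjusted p = 0.00820). These are the calls of 16 that held in each of 14 alternative fits, and none of the 3 genes had overlapping libraries.

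Other members with smaller p-values in WT followed the same pattern without overlap. Oasl1 fell to 4.41, 4.70 and 6.76 CPM in bortezomib, against 11.2, 12.9 and 13.3 CPM in DMSO (edgeR log2 fold change -1.24, adjusted p = 0.00757). Irf1 fell to 92.5, 87.9 and 106 CPM, against 165.5, 245 and 201 CPM in DMSO (-1.09, adjusted p = 0.0127), and Irf9 to 87.9, 90.9 and 142 CPM, against 168, 187 and 210.0 CPM in DMSO (-0.81, adjusted p = 0.0172). Oasl2 (-1.15, adjusted p = 0.0157), Dhx58 (adjusted p = 0.0192), Samd9l (-0.94, adjusted p = 0.0228) and Stat2 (-1.11, adjusted p = 0.0301) also fell. Mx2 had 1 count in WT bortezomib and 157 in WT DMSO, a ratio of 0.0076 with a 95% counting interval of 0.000191 to 0.0429 (edgeR adjusted p = 0.00593). By library it stood at 0, 0 and 0.0497 CPM in bortezomib and 3.30, 3.81 and 0.193 CPM in DMSO. The interval leaves out this spread between libraries, and Mx2 was not called in a fit of these 2 groups only. The other falls, with adjusted p from 0.0362 to 0.0480, were in Cmpk2, Herc6, Ifi44 and Ifit1. The gene that rose was Ifi35, at 94.9, 81.5 and 129.7 CPM in bortezomib and 55.2, 64.6 and 75.4 CPM in DMSO (0.65, SE 0.21, adjusted p = 0.0454). Ifitm1 and Ifitm3 lay above DMSO in all libraries without passing (0.69 and 0.55, adjusted p = 0.0711 and 0.0676).

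The count in WT depended on single libraries. It was 4 without WT bortezomib 1, 5 without WT DMSO 2 and 9 without WT DMSO 1 or WT bortezomib 2, against 16 with all libraries, while the median stayed between -0.83 and -0.63 in these and the other omissions. With the Xist share as a covariate 9 members fell and 0 rose (median -0.51). The shares of all genes called in these fits are not given here, so the counts cannot be read as particular to the members. The 12 HSC markers summed to 2350 to 2710 CPM in WT bortezomib and 3780 to 4280 CPM in WT DMSO. Of these markers 9 were lower and 0 higher, against 7.56% and 7.97% of all genes. The 8 plasmacytoid dendritic cell markers summed to 79.6 to 103 against 131 to 174 CPM in WT DMSO, with Siglech, Ccr9, Klk1, Cox6a2 and Ly6d at 0 in both groups. Of the 3 tested, 2 were lower and 0 higher. The 9 T and NK cell markers summed to 146 to 213 against 82.9 to 92.1 CPM, most of it Nkg7 (166 against 74.0 CPM in WT DMSO, called higher), while Klrb1c and Ccl5, the other tested markers, had log2 fold changes of -0.16 and -1.95 that did not pass. The part of these in the result was not tested.

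In Mx1-Cre;Atg5fl/fl HSCs bortezomib changed 1 member by the same test, Isg20, where 2.02% of all genes were called higher and 1.61% lower (3.63% either way). Isg20 rose to 102.6, 87.5 and 143.5 CPM, against 47.4, 38.4 and 33.1 CPM in DMSO (edgeR log2 fold change 1.49, SE 0.27, adjusted p = 0.00571), and kept its call in each of 14 alternative fits. At an unadjusted p under 0.05 the count was 4 higher and 0 lower, against 8.2% and 8.46% of all genes. At an adjusted p under 0.05 DESeq2 called 4 members and limma voom 8. The shares of all genes called in those fits are not given here. The median was 0.21, and -0.07 without Mx1-Cre;Atg5fl/fl bortezomib 1, the highest of the 3 libraries for most members. It was -0.05 with the Xist share as a covariate, which was 100% in that same library and 0% and 3.51% in the others of its group. Without Mx1-Cre;Atg5fl/fl bortezomib 3, 3 members were called, and without Mx1-Cre;Atg5fl/fl DMSO 3, 2 members, again without the share of all genes. In 7 members all bortezomib libraries lay above all DMSO libraries and in 0 below, against 10.6% and 9.73% of all genes. Ifit3 was one (36.4, 12.5 and 20.8 CPM against 11.01, 7.56 and 7.16 CPM in DMSO, 1.44, adjusted p = 0.102), and Rsad2 another (154.5, 132 and 86.9 CPM against 63.8, 39.9 and 84.0 CPM in DMSO, 0.99, adjusted p = 0.0635). The 9 erythroid markers summed to 1010 to 1180 CPM in bortezomib and 1660 to 2080 CPM in DMSO, with 2 lower and 0 higher. Of their log2 fold changes 4 were above 0 and 5 below. Of 6 megakaryocyte markers 2 were lower and 0 higher. Among 11 tested monocyte and macrophage markers 2 were higher and 0 lower, and among 12 HSC markers 1 was lower and 0 higher. Over all genes 2.02% were higher and 1.61% lower. The part of these lists was not tested.

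The difference between the responses was tested as an interaction, the log2 fold change in Mx1-Cre;Atg5fl/fl minus that in WT. It passed the test above 0 for 11 members and below 0 for 0 (33 were above 0 and 5 below whatever the p), where 4.35% of all genes were called higher and 4.71% lower (9.05% either way), and its median was 0.84 against 0.06 over all genes. Rsad2 differed by 2.42 (SE 0.40, edgeR adjusted p = 0.00565), with a response of 0.99 in Mx1-Cre;Atg5fl/fl and -1.43 in WT. Ifit3 differed by 2.62 (SE 0.66, adjusted p = 0.0248), with 1.44 and -1.18. Parp9 differed by 1.01 (adjusted p = 0.0242), with 0.56 and -0.44, and Ddx58 by 1.21 (adjusted p = 0.0259), with 0.15 and -1.06. The others were Irf1 (1.34), Herc6 (1.57), Oasl1 (1.26), Oasl2 (1.39), Ifit1 (2.10), Stat2 (1.52) and Mx2. Rsad2 alone held in each of 19 alternative fits.

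The interaction count also moved with single libraries. It was 1 without WT bortezomib 1 or Mx1-Cre;Atg5fl/fl DMSO 2, and 2 without WT DMSO 2, WT bortezomib 2 or Mx1-Cre;Atg5fl/fl bortezomib 1. It was 5 without Mx1-Cre;Atg5fl/fl DMSO 1, 6 without Mx1-Cre;Atg5fl/fl DMSO 3, 7 without WT DMSO 1 or Mx1-Cre;Atg5fl/fl bortezomib 2, and 17 without Mx1-Cre;Atg5fl/fl bortezomib 3. The median stayed between 0.60 and 1.02 over all omissions of 1 library. With the Xist share as a covariate, which differed most within a group in Mx1-Cre;Atg5fl/fl bortezomib, it was 0.46 and 1 member was called. The shares of all genes called in these fits are not given here, so the moves cannot be read as particular to the members.

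**Figure D4:**
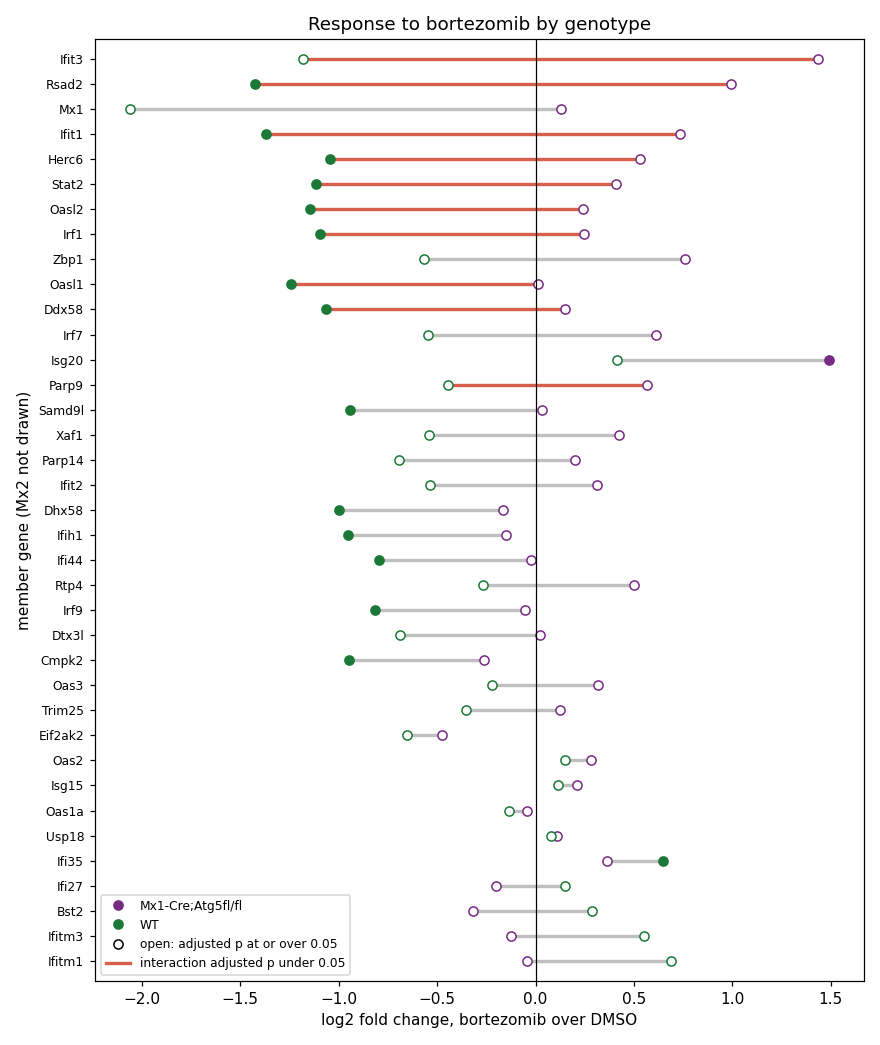
Log2 fold change of bortezomib over DMSO for 37 members in Mx1-Cre;Atg5fl/fl (purple) and WT HSCs (green), with filled points for an adjusted p under 0.05 and red bars where the interaction passed. Rsad2 lies at 0.99 in Mx1-Cre;Atg5fl/fl and -1.43 in WT, and most WT points lie left of the Mx1-Cre;Atg5fl/fl points, with Ifitm1, Ifitm3, Bst2, Ifi27 and Ifi35 in the opposite order. Mx2 is not drawn.

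Genotype was also compared in DMSO, since Mx1-Cre responds to interferon and neither group there received bortezomib. No member passed an edgeR adjusted p of 0.05 (0% of all genes did, higher or lower). At an unadjusted p under 0.05, 11 members were higher in Mx1-Cre;Atg5fl/fl and 0 lower, against 5.24% and 3.76% of all genes. The median was 0.38 against 0.001 over all genes, with 33 members above 0 and 5 below. In 12 members all Mx1-Cre;Atg5fl/fl libraries lay above all WT libraries and in 0 below, against 9.39% and 8.63% of all genes. DESeq2 and limma voom each called 2 members, and the shares of all genes called in those fits are not given here.

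Synthetase genes stood furthest apart in DMSO. Oas2 had 30.5, 19.1 and 24.3 CPM in Mx1-Cre;Atg5fl/fl DMSO and 6.35, 6.68 and 2.22 CPM in WT DMSO (edgeR log2 fold change 2.29, SE 0.50, adjusted p = 0.141), and was called in 5 of 14 alternative fits. Oas3 had 31.2, 34.9 and 38.5 CPM against 10.9, 18.1 and 15.2 CPM in WT (1.24, SE 0.28, adjusted p = 0.145), called in 3. Neither had overlapping libraries. Their interaction terms were 0.13 and 0.54 with adjusted p of 0.936 and 0.419, so a difference between the genotype effects with and without drug did not pass for them. Irf7 had 94.7, 66.1 and 83.3 CPM against 35.8, 37.96 and 43.9 CPM in WT (1.05, adjusted p = 0.442). Dtx3l (0.81, adjusted p = 0.268) and Oasl1 (0.76, adjusted p = 0.394) also had no overlap. Rsad2, the member with the smallest p under bortezomib, overlapped in DMSO at 63.8, 39.9 and 84.0 CPM against 38.3, 52.0 and 56.7 CPM in WT (0.35, adjusted p = 0.743). The summed markers were 1660 to 2080 CPM in Mx1-Cre;Atg5fl/fl DMSO and 2160 to 2430 CPM in WT DMSO for the erythroid list, most of it Car2 (1740 against 2173 CPM), while 7 of its 9 log2 fold changes were above 0 (median 0.69). They were 493 to 616 against 718 to 956 CPM for the monocyte and macrophage list, with 10 of 11 log2 fold changes below 0. No marker of either list was called, where 0% of all genes were, and their part was not tested. With the Xist share as a covariate the median in DMSO was 0.84, with 35 members above 0 and 1 called (share of all genes called not given). The slope of that covariate rests on differences within groups. These were largest in Mx1-Cre;Atg5fl/fl bortezomib (100%, 0% and 3.51%), while each Mx1-Cre;Atg5fl/fl DMSO library held at most 0.987%. This fit therefore cannot separate sex markers from genotype in DMSO.

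Transcript length moved with the changes. Across the 38 members the Spearman correlation of the longest annotated transcript with the log2 fold change was 0.433 for genotype under bortezomib, against 0.281 over all genes, and -0.395 for bortezomib in WT, against -0.249. It was as large where no member was called: 0.389 for genotype in DMSO (0.267 over all genes). Against double negative it was 0.5 for RFP single positive (0.376) and 0.479 for RFP GFP double positive (0.263). It was 0.29 for the interaction, 0.0345 for bortezomib in Mx1-Cre;Atg5fl/fl and -0.013 for RFP single positive against RFP GFP double positive. These are descriptions over genes of the same libraries. All 5 members with a transcript under 1000 bases, Isg15, Ifi27, Ifitm1, Ifitm3 and Bst2, were among those not called higher under bortezomib. With offsets for length and GC, 28 members were called higher between genotypes under bortezomib and 0 lower (median 1.14). Isg15 then passed (0.79, adjusted p = 0.0317). In WT, bortezomib gave 11 lower and 2 higher with the same offsets (median -0.46), and the interaction again gave 11 (median 0.69). The shares of all genes called with these offsets are not given here.

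**Figure D5:**
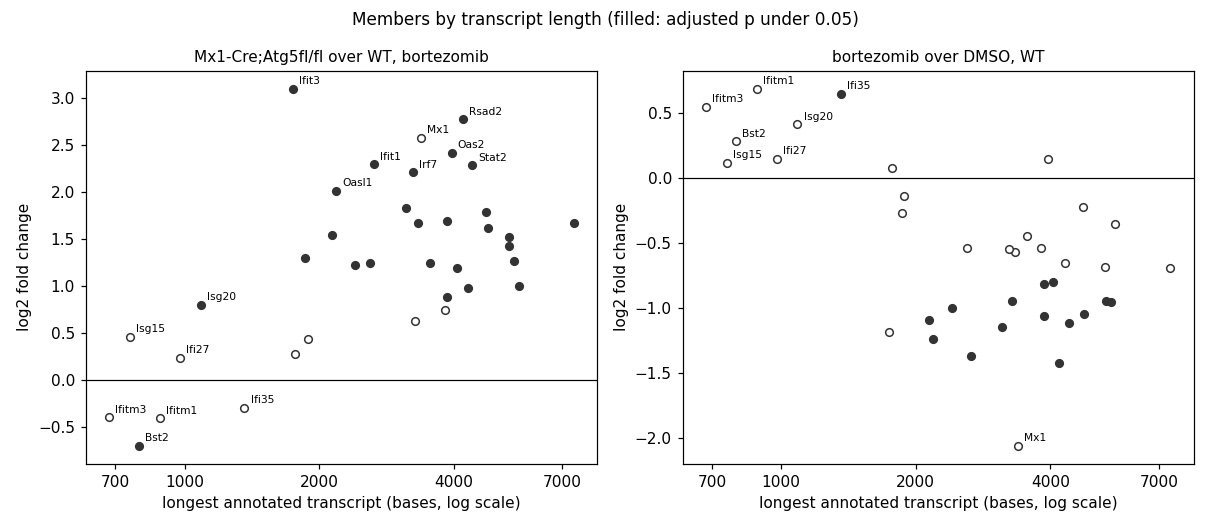
Log2 fold change of 37 members against the length of the longest annotated transcript (log axis, bases) for genotype under bortezomib (left) and bortezomib in WT (right), with filled points for an adjusted p under 0.05. The 5 shortest members lie between -0.70 (Bst2) and 0.46 (Isg15) on the left and above 0 on the right (Ifitm1 at 0.69). Mx2 is not drawn.

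Other genes of the pathway were taken from lists, also chosen with earlier results of these data known. No interferon gene could be tested: of 21 type I, II and III ligand genes, 18 had 0 counts in all 21 libraries, and the highest count of any in a single library was 23. Among 14 receptor and JAK-STAT genes tested, 10 were higher in Mx1-Cre;Atg5fl/fl under bortezomib and 0 lower (median 0.66). The shares over all genes were 17.2% and 15.3%. Socs3, an inhibitor of cytokine receptors, averaged 225 ± 47.4 CPM in Mx1-Cre;Atg5fl/fl bortezomib and 26.1 ± 6.52 CPM in WT bortezomib (SD, n = 3 libraries each, edgeR log2 fold change 3.10, adjusted p = 8.04e-05). Stat3 (452 ± 108 against 194 ± 20.1 CPM in WT) and Jak2 (122 ± 40.3 against 51.7 ± 8.28 CPM in WT) were higher too. Of the receptor subunits, Ifnar1 (0.96, adjusted p = 0.00256) and Ifnar2 (0.52, adjusted p = 0.0124) both passed. In WT, bortezomib lowered 4 of these 14 genes, among them Jak1, Ifngr1 and Jak2, against 7.56% of all genes.

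Of 20 genes of nucleic acid sensing and interferon induction, 10 were higher and 3 lower in Mx1-Cre;Atg5fl/fl under bortezomib (median 0.64). Over all genes 17.2% were higher and 15.3% lower, so the lower count is near that share. The repressor gene Irf2 (153 ± 26.9 against 64.4 ± 3.62 CPM in WT, SD, n = 3 libraries each), the RNA editor Adar (153 ± 49.2 against 57.3 ± 6.29 CPM) and Tmem173, which encodes STING (150.5 ± 36.3 against 67.1 ± 9.89 CPM), were higher. The lower genes encode the subunits of RNase H2, which removes ribonucleotides from DNA. Rnaseh2b averaged 38.9 ± 9.84 CPM in Mx1-Cre;Atg5fl/fl bortezomib and 133 ± 19.7 CPM in WT bortezomib (edgeR log2 fold change -1.77, SE 0.23, adjusted p = 0.000166), Rnaseh2c 47.1 ± 20.02 and 136 ± 11.2 CPM, and Rnaseh2a 77.3 ± 11.5 and 158 ± 4.06 CPM. Rnaseh2a and Rnaseh2c rose in WT with bortezomib (0.65 and 0.93, adjusted p = 0.0179 and 0.0169), and all 3 subunit genes had a negative interaction that passed.

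Of 47 further interferon-stimulated genes tested, 30 were higher and 1, Ifitm2, was lower (median 0.97), against 17.2% and 15.3% of all genes. The chemokine gene Cxcl10 averaged 29.5 ± 11.2 CPM in Mx1-Cre;Atg5fl/fl bortezomib and 1.97 ± 0.761 CPM in WT bortezomib (SD, n = 3 libraries each, edgeR log2 fold change 3.91, SE 0.42, adjusted p = 7.94e-05). It also rose with bortezomib in Mx1-Cre;Atg5fl/fl (1.80, adjusted p = 0.0152) and fell in WT (-1.40, adjusted p = 0.0273). The guanylate-binding and immunity-related GTPases, which are induced by type I and type II interferon alike, were higher in 13 of 15 cases and lower in 0 (median 1.72). Gbp2 averaged 196 ± 104.5 against 41.5 ± 3.28 CPM in WT (2.24), Gbp3 154 ± 35.6 against 47.0 ± 2.82 CPM (1.72), and Gbp5 44.4 ± 18.6 against 11.1 ± 2.05 CPM (2.00). Bortezomib in WT lowered 12 of the 47 genes, raised 1, and lowered 6 of these 15. Over all genes it lowered 7.56% and raised 7.97%. None of the genes on these lists was called between genotypes in DMSO, where 0% of all genes were. Log2 fold changes there were above 0 for 40 of the 47 and 11 of the 15, with 7 and 4 below. Of the 14 receptor and JAK-STAT genes 12 were above 0, and of the 20 sensing and induction genes 15, with 2 and 5 below.

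Among the reporter groups no member was called in any of the 3 comparisons by edgeR, DESeq2 or limma voom. All genes gave 0% called for RFP single positive against either other group and 0.0065% for RFP GFP double positive against double negative. At an unadjusted p under 0.05 there were 0 members for RFP single positive against RFP GFP double positive (0.82% of all genes higher, 0.54% lower). There were 1 higher and 2 lower for RFP single positive against double negative (4.4% and 3.14%), and 3 higher and 1 lower for RFP GFP double positive against double negative (4.9% and 3.66%). All libraries of the first group lay above or below those of the second in 1 and 1 (3.84% and 3.51% of all genes), 2 and 2 (7.64% and 5.52%) and 2 and 1 members (6.28% and 4.94%). The medians were 0.03, 0.26 and 0.07. Rsad2 stood at 48.8, 53.0 and 46.6 CPM in RFP single positive, 41.2, 80.5 and 55.3 CPM in RFP GFP double positive and 45.2, 16.6 and 51.6 CPM in double negative libraries, all overlapping. The smallest p was that of Trim25, at 46.0, 53.2 and 52.1 CPM in RFP GFP double positive and 30.3, 21.9 and 40.7 CPM in double negative libraries (edgeR log2 fold change 0.71, SE 0.25, adjusted p = 0.555). Isg20 went the other way in the same comparison, at 49.2, 47.5 and 43.4 CPM against 69.8, 93.8 and 51.8 CPM in double negative libraries (-0.62, adjusted p = 0.558). Neither passed the correction.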

How the data were processed

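The 21 libraries of RNA from sorted HSCs were put into 7 groups of 3 by their sample labels. The authors deposited raw counts per gene, with 0 columns lacking a sample. The labels' protocols name an RNeasy Plus Micro kit and SMARTseq2, and the submitters' processing notes name Bowtie 1.0.0, STAR 2.6.1 and HTSeq 0.7.1 with the builds GRCm38.p4 and GRCh38, without a role. Neither the annotation release nor the strand setting is given in the sources used here. Without strand, reads of overlapping genes cannot be told apart.

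The members and lists were chosen with earlier results of these data known. The counts were tested with edgeR 4.0.16 under R 4.3.3. Genes passed filterByExpr (16149 in the treatment and 15375 in the reporter experiment), libraries were scaled by TMM, and the quasi-likelihood model gave every group its own mean, separately for each experiment. The call threshold was an adjusted p of 0.05 (Benjamini-Hochberg over all genes of a comparison), and every adjusted p in the text is of this kind. Rose and fell refer to calls. A floor of 3 counts lay between 0.0953 and 0.2 CPM across libraries. No library pair within a group was a duplicate. Named were all members called, up to 10 a comparison with values in every library, Ly6a and Atg5, and up to 3 genes each way per pathway list. Some genes the rule gives are not reported here. Ifnar1, Ifnar2, the members not called and the reporter values of Rsad2 were added after their values were seen.

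Alternatives were relative log expression scaling, the DESeq2 1.42.0 Wald test, limma 3.58.1 voom with quality weights, dropping the low-count filter, fitting the compared groups alone, a block for the replicate number, a covariate for Xist relative to the sum of Xist and Ddx3y, spline offsets for transcript length and GC, and leaving out each library. The procedure was also run on simulated counts with planted changes, drawn independently for each library. These held no mix of sex markers, length trend or shared replicate numbers, so they do not test for those. Plots were made in matplotlib 3.10.9 (Python 3.11).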

Additional observations from a re-analysis of the deposited data

Results flagged for a closer look

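The response to bortezomib differed between Mx1-Cre;Atg5fl/fl and WT HSCs for 11 members by the interaction test of edgeR at an adjusted p under 0.05. On the log2 scale, the response in Mx1-Cre;Atg5fl/fl minus that in WT was 2.62 for Ifit3, 2.42 for Rsad2 and 2.10 for Ifit1. It was 1.57 for Herc6, 1.52 for Stat2, 1.39 for Oasl2, 1.34 for Irf1, 1.26 for Oasl1, 1.21 for Ddx58 and 1.01 for Parp9. For Mx2 the fitted value was 7.14, which depends on the prior count because WT bortezomib held 1 count of it in all. Rsad2 was called in each of 19 alternative fits, and the other 10 lost their call in at least 1.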

How the results depend on the processing

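No called result reversed under any alternative run. Members called for bortezomib in WT numbered 16, against 25 with limma voom and 9 with the Xist share as a covariate, and 4 to 17 when each library was left out. For bortezomib in Mx1-Cre;Atg5fl/fl the count of 1 became 4 with DESeq2, 8 with limma voom, 4 with no filter on low counts and 1 to 3 with a library left out. For genotype in DMSO the count of 0 became 2 with DESeq2, 2 with limma voom, 4 with no filter, 1 with the Xist share and 1 with only the groups compared. For the interaction the count of 11 became 29 with limma voom, 18 with no filter, 1 with the Xist share and 1 to 17 with a library left out. The count for genotype under bortezomib stayed between 26 and 35. The share of all genes called in each alternative fit is not given here, so a shift in these counts cannot be read as particular to the members. The cause of these shifts was not tested. Fitting only the groups compared gives no value for the interaction.

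The labels share replicate numbers between groups. Same-numbered libraries had correlations of their deviations of -0.0282 to 0.2 over 18 pairs in the treatment experiment. Of these 2 were over 0.1, against 0 of 36 differently numbered pairs. In the reporter experiment the range was -0.0143 to 0.165 over 9 pairs, with 4 over 0.1, against 1 of 18 differently numbered pairs. Reporter Xist shares also went by number, at 0% to 10.2% in replicate 1, 88.1% to 99.9% in replicate 2 and 0% to 5.45% in replicate 3. Whether same-numbered reporter libraries share a mouse or a sort is not in the labels, and the main fits left them unpaired. With the replicate number as a block the counts were 19 (bortezomib in WT), 2 (bortezomib in Mx1-Cre;Atg5fl/fl), 0 (genotype in DMSO), 29 (genotype under bortezomib) and 13 (interaction). The block gave 0 in each of the 3 reporter comparisons.

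With 3 libraries a group, depth limits mainly Mx1 and Mx2, which lay near the floor in several libraries.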
